A study of Caenorhabditis elegans with 2 samples.

Results

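The genes described here are 10 genes that act in the somatic cells of the hermaphrodite gonad of Caenorhabditis elegans, the gonadal sheath, the spermatheca and the distal tip cell. They were taken by gene name from the table of 46739 genes by a rule that uses no measured value, and all 10 names were found in it. The fate regulators are lim-7, ceh-18 and fkh-6, and lag-2 is a Notch ligand. The genes of the calcium signal are plc-1, itr-1, lfe-2 and ipp-5, and the genes of contraction are let-502 and fln-1. Adult hermaphrodites of the strain YBT7 and of the wild-type strain N2 were dissected on the day after L4, and the gonads of each strain gave 1 library. YBT7 carries the alleles deg-1(huj32) and linc-20(huj2) and the rearrangement hujCf1. Its X chromosome is split, with an internal piece (the internal segment) separate from the joined outer pieces (the linear segment), while N2 carries none of these alleles. The source label of the YBT7 library also holds the words wild type, and its count column was identified through the sample description. YBT7 is a single CRISPR-made strain that was outcrossed to wild type, and the number of worms behind each library is not given in the sources used here. The study asked which genes, on X in particular, change in level when the X chromosome is cut.

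Oocytes of the worm grow inside a thin sleeve of sheath cells, which are smooth-muscle-like and pull the mature oocyte into the spermatheca, the contractile bag where sperm are kept and fertilization takes place. The signal for ovulation runs through inositol trisphosphate (IP3). Phospholipase C makes IP3, the IP3 receptor then lets calcium out of the endoplasmic reticulum, and kinases and phosphatases take IP3 away. In the spermatheca calcium acts on nonmuscle myosin, and the cells contract. At the far end of each gonad arm the distal tip cell displays a Notch ligand that keeps germ cells dividing.

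The libraries held 4525439 counts in YBT7 and 2873065 counts in wild type, so that a single read is worth 0.221 CPM (counts per 1000000 counts of the library) in YBT7 and 0.348 CPM in wild type. For a count of 0 a floor of 3 counts was used, which is 0.663 CPM in YBT7 and 1.04 CPM in wild type. The exact 95% limits of such a count are higher, 0.815 CPM in YBT7 and 1.28 CPM in wild type. Counts were divided by size factors of 1.22 for YBT7 and 0.816 for wild type. A gene was measured if the mean of its normalized counts was above 5, and it was called if its absolute log2 fold also passed a limit, which adds 1 to the quotient of 5 and the root of the mean. This rule is taken from the study's methods. Folds are YBT7 over wild type. Their 95% intervals, like those of levels, cover the counting of reads only, and since neither strain has a second library, the differences could not be checked in replicates and carry no p-values. The deleted linc-20 gene had 0 counts in YBT7 and 4 in wild type, too few to check the labels. In deg-1 the deletion is intronic and the X chromosome is split there. Its 3 counts in YBT7 and 1 in wild type are also too few.

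None of the 6 measured genes was called, beside 10.8% of the 8618 genes measured in all (9.55% of them called higher and 1.25% called lower in YBT7). With 6 genes, a count of 0 is not a departure from that share. Nor was any called with a minimum mean of 10, where the share was 9.44%. The abundant genes lay close to an even level between the strains. The log2 fold was -0.057 for fln-1 and -0.31 for let-502, and both were above 0 when libraries were scaled to oocyte and germline genes. The sparse genes pointed both ways, with itr-1 and ipp-5 near a doubling in YBT7 and lfe-2 and plc-1 a little below wild type, though plc-1 was at 0.12 when scaled to oocyte and germline genes. The median of the 6 was -0.14, beside -0.030 for all measured genes, whose quartiles were -0.32 and 0.51. The other members, lim-7, ceh-18, fkh-6 and lag-2, had too few reads to be measured. In bulk RNA such as this, fewer cells of a type and less RNA per cell cannot be told apart.

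**Figure D1:**
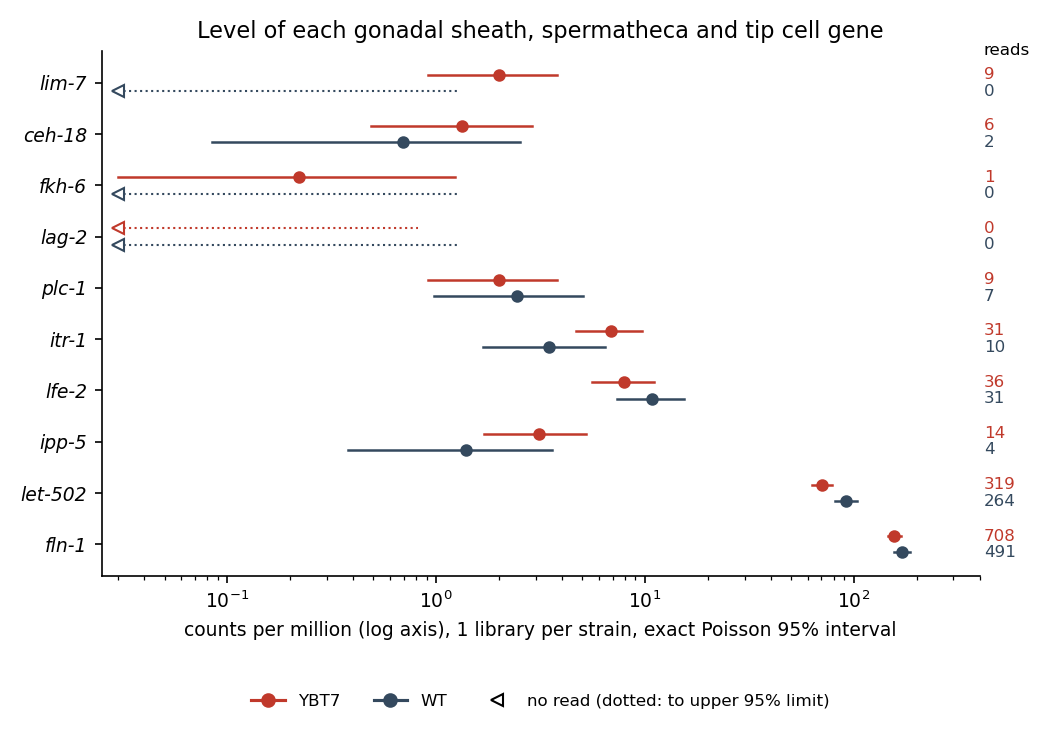
Level of each gene in CPM on a log axis, YBT7 above wild type, with exact Poisson 95% intervals and the number of reads at the right. Open triangles mark genes without a read, with dotted lines up to the 95% limit. The levels of fln-1 and let-502 are far above those of the other 8 genes in both libraries, and lag-2 had no read in either.

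Among the fate regulators, lim-7 (WBGene00002989, chromosome I from 5716676 to 5725356) encodes a LIM homeodomain protein whose reporter is widely used to see sheath cells. It had 9 counts in YBT7 (1.99 CPM) and 0 counts in wild type. Against a floor of 3 wild-type counts the ratio was 2.0, a log2 fold of 1. This value leaves out the counting error of the 9 counts and is no lower bound. With the YBT7 counts thinned to the wild-type total, the log2 fold against the floor was 0.48. The lower limit of the ratio from read counting, before thinning, was 1.32. The interval lay above an even level in 22.7% of measured genes, a set with means above 5 that leaves lim-7 out. The mean normalized count was 3.67, short of the minimum of 5, so that lim-7 was not measured and not called. Without that minimum it would be called, as would 14.1% of genes in the upward direction. That call follows from the wild-type count of 0 alone, which makes the fold infinite. Against the floor, the log2 fold of 1 is below the limit of 3.61 at this mean. ceh-18 (WBGene00000441, X from 3843379 to 3857797, linear segment) encodes a POU homeodomain protein of the sheath that holds back oocyte maturation when sperm are missing. It had 6 counts in YBT7 (1.33 CPM) and 2 in wild type (0.696 CPM), a ratio of 2.0 with an interval from 0.358 to 20.3. This interval takes in both a fall and a large rise, so that the depth shows no difference. fkh-6 (WBGene00001438, chromosome II from 4379883 to 4383288) encodes a forkhead protein needed for the somatic gonad and active in the spermatheca of the adult. It had 1 count in YBT7 and 0 in wild type, below the floor in both libraries. The 3 fate regulators together had 16 counts in YBT7 (3.54 CPM, interval 2.02 to 5.74) and 2 counts in wild type (0.696 CPM, 0.0843 to 2.51). The ratio of these sums was 5.33 (1.25 to 47.8), and 9 of the 16 YBT7 counts are those of lim-7.

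The Notch ligand gene lag-2 (WBGene00002246, chromosome V from 3188350 to 3189841) is the defining gene of the distal tip cell. It had 0 counts in YBT7 and 0 in wild type. A tip cell is a single cell at the end of a gonad arm full of germ nuclei. At this depth and with the gene model of the deposited table, its ligand gene was not detected in either strain.

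The 3 genes with no wild-type read, lim-7, fkh-6 and lag-2, share a feature of their gene models. Reverse transcription started from poly(A) tails, so that reads come mainly from transcript ends, and the 3′ end of a model decides which of them are counted. In Ensembl release 115 of the same assembly, WBcel235, the 3′ end of lim-7 lies 453 bases further downstream than in the deposited table, that of fkh-6 298 bases and that of lag-2 274 bases. For let-502 the extension is 79 bases, and for the other 6 genes it is 3 to 16 bases. Of 19662 protein-coding genes with a place in both annotations, 6.33% are extended by more than 200 bases. Of these extended genes, 48.0% had no read in YBT7 and 57.7% had none in wild type. Among genes extended by 20 bases or fewer, 28.7% had no read in YBT7 and 35.8% had none in wild type. The class in between, from 21 to 200 bases, had shares of 43.6% in YBT7 and 53.7% in wild type, nearer to those of the longest extensions. The part of the gene models in the low counts of the 3 genes was not tested.

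**Figure D2:**
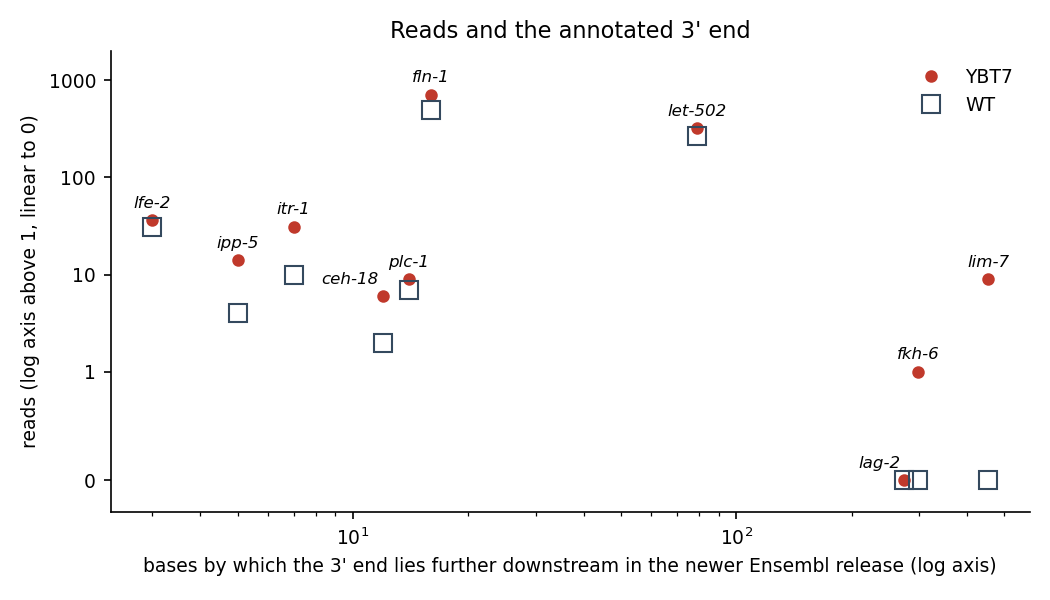
Reads of each gene in YBT7 (filled circles) and wild type (open squares), against the bases by which the 3′ end of its model lies further downstream in Ensembl release 115 than in the deposited table. The 3 genes at the right, extended by 274 to 453 bases, are the ones without a wild-type read.

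The calcium signal starts with plc-1 (WBGene00004036, X from 10794871 to 10815004, internal segment), which encodes the phospholipase C epsilon that makes IP3 in the spermatheca. It had 9 counts in YBT7 (1.99 CPM) and 7 in wild type (2.44 CPM). The log2 fold was -0.22, a ratio of 0.857 with an interval from 0.284 to 2.71. At this mean a 6.83-fold difference would be needed for a call, so a change of several fold in either direction could have gone uncalled. Release 115 extends the gene to 10838650 at its 5′ side, which leaves the transcript ends where the reads fall nearly unmoved. itr-1 (WBGene00002173, chromosome IV from 7675174 to 7696923) encodes the IP3 receptor, which also acts in intestine and pharynx. It had 31 counts in YBT7 (6.85 CPM) and 10 in wild type (3.48 CPM). The ratio was 2.07 (0.987 to 4.73) and the log2 fold 1.05, below the limit of 2.15. At these size factors the interval reaches to just under an even level. The log2 fold was 1.39 when libraries were scaled to oocyte and germline genes. Whether the difference exceeds the counting error therefore depends on the scaling.

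IP3 is removed by the products of lfe-2 and ipp-5. lfe-2 (WBGene00002979, chromosome I from 5023889 to 5041157), an IP3 kinase gene, had 36 counts in YBT7 (7.96 CPM) and 31 in wild type (10.8 CPM). Its ratio was 0.774 (0.466 to 1.29) and its log2 fold -0.37. ipp-5 (WBGene00002146, X from 6031469 to 6034510, linear segment), an inositol phosphatase gene of the spermatheca, had 14 counts in YBT7 (3.09 CPM) and 4 in wild type (1.39 CPM). The ratio was 2.33 with an interval from 0.733 to 9.74, and the log2 fold of 1.22 was below the limit of 2.75. Its normalized counts were 11.4 in YBT7 and 4.90 in wild type, so that it reached the minimum mean through YBT7. The 3′ end of ipp-5 shares 53 exonic bases with hsp-25 on the other strand, which had 153 counts in YBT7 and 59 in wild type, so its few reads are less certain if strands were not kept apart in counting. The 3′ ends of fkh-6 and fln-1 also lie under genes of the other strand, B0286.1 with 6 counts in YBT7 and 3 in wild type, and cdh-8 with 2 and 0.

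The 4 genes of the calcium signal together had 90 counts in YBT7 (19.9 CPM, interval 15.99 to 24.4) and 52 in wild type (18.1 CPM, 13.5 to 23.7). The ratio of the sums was 1.15 (0.811 to 1.66), an interval that holds an even level at these size factors. Scaling to oocyte and germline genes raised the log2 fold of each of the 4, and the sum was not rescaled. Of these genes itr-1 and ipp-5 would pass a fixed limit of 2-fold, which 21.8% of measured genes pass in either direction and 17.2% pass upwards. Of genes at their level a larger share does so, 43.2% of the 2118 measured genes with a mean of 5 to 20 being at least 2-fold higher in YBT7. The median log2 fold of that class was 0.74, with quartiles of -0.28 and 2.04. plc-1, itr-1 and ipp-5 belong to it, and all 3 lie between its quartiles. lfe-2 lies in the class from 20 to 50, where the quartiles were -0.40 and 1.01.

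**Figure D3:**
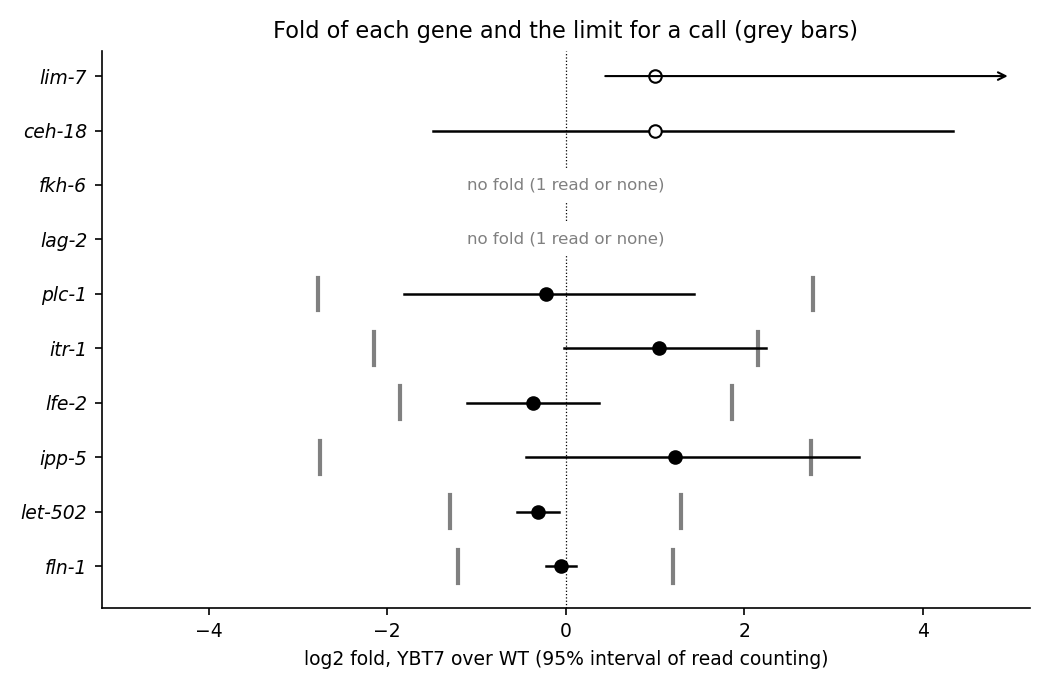
Log2 fold of each gene, YBT7 over wild type, with the 95% interval of read counting. Grey bars mark the limit for a call at the mean of each measured gene, open points stand for genes that were not measured, and the open point of lim-7 is its fold against the floor. No point lies beyond its bars.

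The genes of contraction carry most of the reads. let-502 (WBGene00002694, chromosome I from 4738250 to 4744321) encodes a protein kinase, which keeps nonmuscle myosin active in the spermatheca and also shapes the epidermis of the embryo. It had 319 counts in YBT7 (70.5 CPM, interval 63.0 to 78.7) and 264 in wild type (91.9 CPM, 81.1 to 103.7). The ratio was 0.806 (0.682 to 0.952) and the log2 fold -0.31, which turned to 0.029 when libraries were scaled to oocyte and germline genes. Its interval lies below an even level, as do those of 24.2% of all measured genes, and this is far short of the limit of 2.45-fold. fln-1 (WBGene00022048, chromosome IV from 359239 to 376062) encodes filamin, the actin crosslinker without which spermathecal cells fail to push out the embryo. It had 708 counts in YBT7 (156 CPM, interval 145 to 168) and 491 in wild type (171 CPM, 156.1 to 187). Its ratio of 0.961 had the narrowest interval of the 10 genes, 0.856 to 1.08, which leaves out a change of 1.2-fold or more in either direction at these size factors. Scaled to oocyte and germline genes, the log2 fold was 0.28. Both lie among the 2652 genes with a mean of 200 to 1000, whose log2 folds had quartiles of -0.32 and 0.073.

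Summed over the 10 genes, YBT7 had 1133 counts (250.4 CPM, 236 to 265) and wild type 809 counts (282 CPM, 263 to 302). The ratio was 0.934 (0.852 to 1.02) at these size factors, and sums were not rescaled to oocyte and germline genes. fln-1 and let-502, for which the cells of origin were not tested, make up 90.6% of the sum in YBT7 and 93.3% in wild type. Without them the other 8 genes had 106 counts in YBT7 (23.4 CPM, 19.2 to 28.3) and 54 in wild type (18.8 CPM, 14.1 to 24.5), a ratio of 1.31 (0.934 to 1.85). Per kilobase of exon, fln-1 led with 19.5 CPM in YBT7 and 21.3 CPM in wild type, ahead of let-502 with 16.1 CPM per kilobase in YBT7 and 21.05 in wild type. The intervals of this pair overlapped in wild type and not in YBT7. lfe-2 came next, at 2.74 CPM per kilobase in YBT7 and 3.71 in wild type, then ipp-5 at 1.81 and 0.814. The intervals of lfe-2 and ipp-5 overlapped in YBT7 and not in wild type. That of ipp-5 also overlapped those of lower genes in both libraries. The remaining 6 genes were at or below 1.04 CPM per kilobase in both libraries, and neighbours in their order overlapped in their intervals. Since reads come from transcript ends, division by length lowers long genes such as plc-1 with its 12137 exonic bases.

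**Figure D4:**
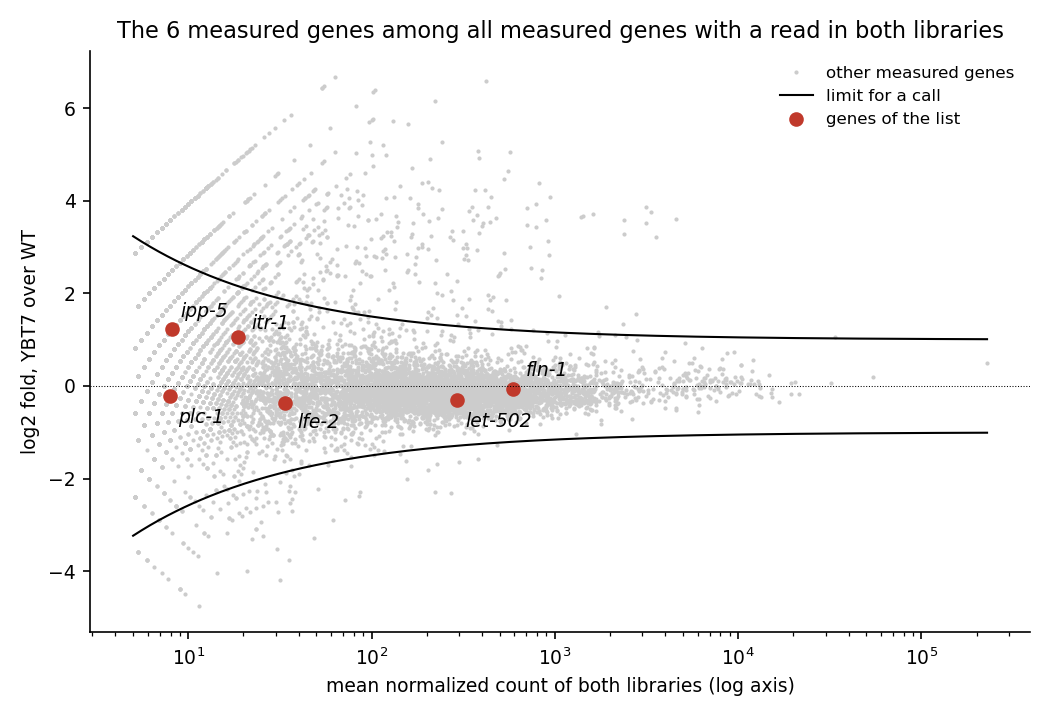
Log2 fold, YBT7 over wild type, against the mean normalized count on a log axis, for measured genes with a read in both libraries. Grey points are the other genes, black lines the limit for a call. The 6 measured genes lie between the lines, with fln-1 and let-502 in the dense band near 0 and ipp-5 and itr-1 above it at low means.

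The X-linked genes of the group are ceh-18 and ipp-5 on the linear segment and plc-1 on the internal segment. Together they had 29 counts in YBT7 and 13 in wild type, a ratio of 1.49 (0.749 to 3.12). On the linear segment, 20.6% of 520 measured genes were called higher and the median log2 fold was 0.15. On the internal segment, 17.01% of 529 were called higher and 4.16% lower, with a median of -0.10. The intervals of all 3 genes hold an even level, so at this depth no difference of theirs was detectable.

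The profiles most like those of the 3 highest genes were sought over all genes by distance of log2(normalized count + 1), over 2 libraries only. The nearest to fln-1 were T13C2.6, rars-1, a tRNA synthetase gene, and cee-1. The nearest to let-502 were Y53G8AR.9, gsk-3, a kinase gene, and nuo-5, a gene of the respiratory chain. Y48A6C.4 and Y53G8AM.8 had the very counts of lfe-2. Within a distance of 0.1 there were 39 genes around fln-1, 55 around let-502 and 13 around lfe-2, so these profiles are shared by many genes.

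The wider pathways of the sheath and spermatheca were followed in 8 lists, which hold 83 genes besides the 10. Of the 67 measured among them 8 rose in YBT7 and none fell, with a median log2 fold of -0.061. With 9.55% of all measured genes called higher, this count and those of the single lists of contractility and tip cell migration are near the background. Of the 8, 5 are muscle filament genes that are also markers of body wall muscle. In the list of ovulation signalling none of 16 measured genes, of which 4 are plc-1, itr-1, lfe-2 and ipp-5, was called (median -0.054). It holds sca-1, the calcium pump that refills the endoplasmic reticulum, at -0.046, ppk-1, a kinase that makes the substrate of phospholipase C, at -0.19, and the growth factor gene lin-3 at -0.27. Of 16 measured genes of actomyosin contractility, let-502 and fln-1 included, 2 rose, and the median was -0.19. clik-1, a calponin-like gene of the sheath and of muscle, had 838 counts in YBT7 and 142 in wild type, 3.93-fold higher (3.29 to 4.73). atn-1, the alpha-actinin gene of muscle, had 79 counts in YBT7 and 15 in wild type, 3.51-fold higher (2.01 to 6.57).

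Sheath junctions and cyclic AMP signalling had no call among 5 measured genes (median 0.22, range -0.32 to 2.42). The highest of these values rests on 16 counts in YBT7 and 2 in wild type. inx-8 and inx-9, innexin genes that join sheath cells to germ cells, bear on the label of the group, since they are among the defining genes of the sheath. inx-8 had 660 counts in YBT7 and 391 in wild type (ratio 1.13, 0.992 to 1.28), and inx-9 had 89 and 74 (0.802, 0.582 to 1.11). kin-2, a regulatory subunit gene of protein kinase A, stood at 0.22. Of the other sheath markers, lim-7 had no wild-type read and ceh-18 had few reads in both libraries. Of the spermatheca markers, fln-1 was abundant in both libraries, sth-1 had 9 counts in YBT7 and 5 in wild type, and fkh-6 was at or near 0. No count of lag-2 marks the tip cell.

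The list of engulfment, by which sheath cells clear dying germ cells, had no call among 8 measured genes and a median of -0.37. ced-2 stood at 0.12, ced-12 at -0.44 and ced-5 at -1.03, with 307 counts in YBT7 and 419 in wild type. None of 7 measured genes of the Notch pathway was called (median -0.30). The receptor gene glp-1 stood at -0.24, its germline target lst-1 at -0.18 and the protease gene sup-17 at -0.71. In the list of tip cell migration 1 of 6 measured genes rose (median 0.70). This was mig-6, a papilin gene of the basement membrane, with 151 counts in YBT7 and 26 in wild type, 3.87-fold higher (2.54 to 6.12). Of the list of gonad fate 5 of 14 genes were measured, none was called, and the median was -0.37, with gon-4 at -0.53, sys-1 at -0.37 and pop-1 at 0.11.

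Muscle filament genes, which sheath cells share with body wall muscle, rose in 5 of 10 measured genes with a median log2 fold of 1.62. Among them were pat-10, 5.89-fold higher, unc-87, 5.41-fold higher, lev-11, 3.82-fold higher, and unc-15, 3.69-fold higher. mup-2, the troponin T gene that sheath cells use, had 305 counts in YBT7 and 134 in wild type, a ratio of 1.52 (1.23 to 1.87) that was not called. The 5 sheath markers lim-7, ceh-18, inx-8, inx-9 and mup-2 summed to 236 CPM in YBT7 and 209 CPM in wild type, a ratio of 1.19 (1.07 to 1.31). Without mup-2, a choice made after the values were seen, the ratio was 1.09 (0.971 to 1.23), an interval that holds an even level at these size factors. inx-8 gives most of these counts, 660 of 764 in YBT7 and 391 of 467 in wild type. The 5 spermatheca markers fkh-6, ipp-5, sth-1, fln-1 and plc-1 summed to 164 CPM in YBT7 and 176 CPM in wild type, a ratio of 0.974 (0.869 to 1.09), and fln-1 gives nearly all of it.

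Most measured markers of intestine, body wall muscle and cuticle were called higher in YBT7. Of the 10 genes none of the 6 measured was called, and the other 4 were too sparse to be called. A call would have needed 6.83-fold for plc-1, 6.73-fold for ipp-5 and 4.45-fold for itr-1. Intestine markers were called higher in 14 of 15 measured genes and summed to 11406 CPM in YBT7 and 986 CPM in wild type. Body wall muscle markers were called higher in 11 of 14, with sums of 2174 CPM in YBT7 and 481 CPM in wild type. Markers of cuticle and hypodermis were called higher in 4 of 7, with sums of 2797 CPM in YBT7 and 317 CPM in wild type, and neuron markers in 2 of 8, with 441 CPM in YBT7 and 394 CPM in wild type. None of 5 measured pharynx genes (18.1 CPM in YBT7 and 21.6 CPM in wild type for the list) and none of 3 vulva and uterus genes (13.3 CPM in YBT7 and 13.6 CPM in wild type for the list) was called. The coelomocyte genes unc-122, cup-4 and lgc-26 had 7, 8 and 7 counts in YBT7 and no count in wild type, and cup-5, which is not particular to these cells, stood at -0.54. It was the 1 measured gene of this list, none was called, and the list summed to 94.1 CPM in YBT7 and 136.4 CPM in wild type. Of sperm markers 3 of 6 fell, to a sum of 10.8 CPM in YBT7 against 40.03 CPM in wild type. The germline (median -0.35) and oocyte markers (median -0.27) had no call among 12 genes each. The part of these tissues in the counts of itr-1, lim-7, clik-1, atn-1, mig-6 and the muscle filament genes was not tested.

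**Figure D5:**
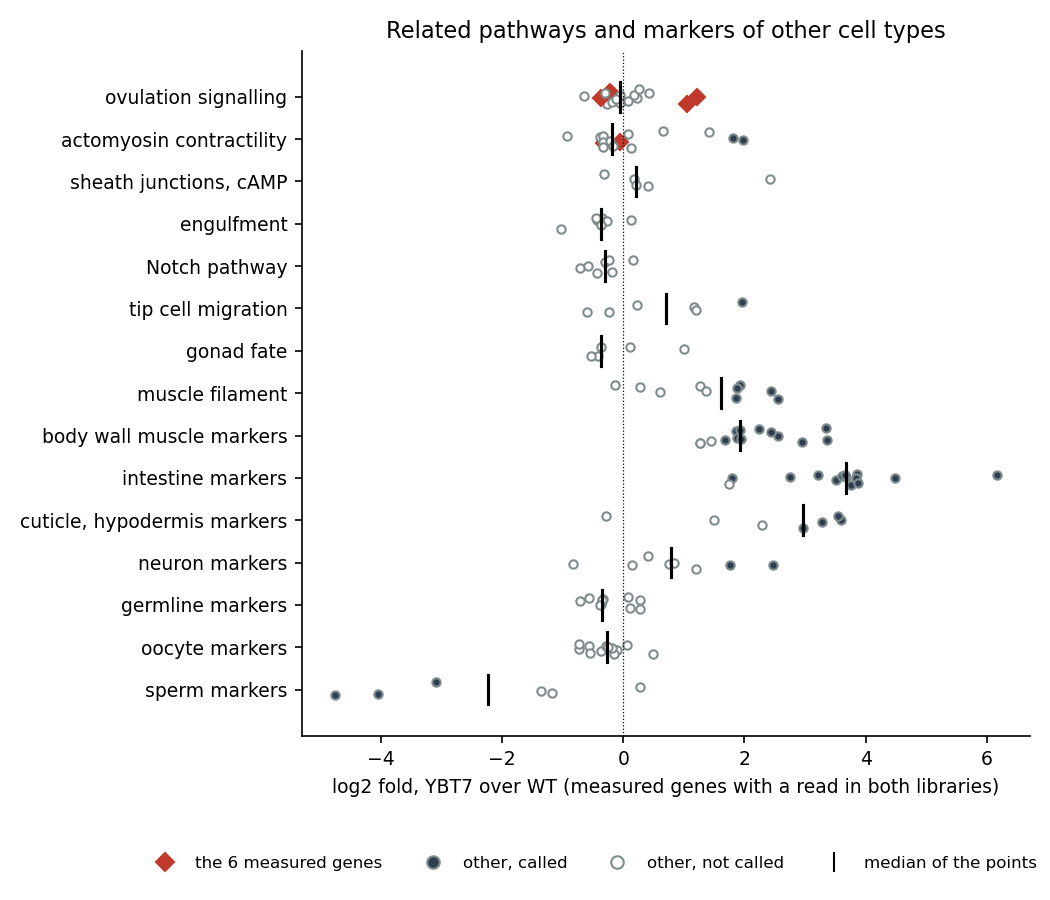
Log2 fold, YBT7 over wild type, of the measured genes of each list with a read in both libraries, with the median of the points as a black bar. Red diamonds are the 6 measured genes described here, dark points other called genes and white points other genes. The diamonds lie between -0.37 and 1.22, while most markers of intestine, body wall muscle and cuticle lie above them.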

How the data were processed

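RNA of dissected gonads was measured in 1 library for each strain. The deposited table holds raw counts per gene, which the authors made with HTSeq (0.6.0) from TopHat2 alignments (2.1.1) to WBcel235, after trimming by cutadapt (1.12). It also holds normalized counts, log2 fold changes and a decision that the authors made with DESeq2 (1.12.4), which were not used. Whether molecular identifiers were collapsed is not given in the sources used here, so intervals may be too narrow.

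Size factors were medians of ratios over 10603 genes. Ratios have exact conditional intervals, levels of single genes exact Poisson intervals and sums exact binomial ones, all at 95%. The call rule was tried on simulated counts that varied by read counting only, with large changes placed in genes well above the minimum mean. That trial covers neither variation between libraries nor the sparse genes. Exons came from Ensembl release 115, and jun-1 and marg-1 were matched by gene ID. The 10 genes and all lists were chosen with earlier results of these data known. By the rule for named genes these are the 10, their 3 nearest profiles, and from each pathway or marker list the called genes up to the 4 of highest mean, or else the 3 highest. Marker lists are printed as counts and sums, with single genes named for coelomocytes, sheath and spermatheca. No sequence is shown, because none was given with the reference. Alternatives were other scalings (TMM and upper quartile from edgeR 4.0.16), thinning, a pseudocount of 1 and other limits. Statistics used scipy 1.17.1 and numpy 2.4.6 under Python 3.11.15, tables pandas 2.3.3, plots matplotlib 3.10.9, and edgeR ran under R 4.3.3.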

Additional observations from a re-analysis of the deposited data

How the results depend on the processing

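No member passed the limit for a call under any of the other scalings, with the YBT7 counts thinned to the wild-type total, with a pseudocount of 1 or with a minimum mean of 10. The number called was 2 with a fixed limit of 2-fold (itr-1 and ipp-5) and 1 without a minimum mean, where 14.1% of 11683 genes were called higher. The latter was lim-7, whose wild-type count of 0 makes its fold infinite, so that it passes any limit. Scaling to oocyte and germline markers moved the median log2 fold of all measured genes to 0.32, that of let-502 to 0.029, that of fln-1 to 0.28 and that of the members to 0.20. Under the other scalings and the thinning the members' median stayed between -0.21 and -0.069. Over all alternatives the log2 fold of itr-1 ran from 0.98 to 1.39, that of ipp-5 from 0.87 to 1.56, that of lfe-2 from -0.44 to -0.028 and that of plc-1 from -0.29 to 0.12. The log2 fold of lim-7 against the floor ran from 0.48 with thinned counts to 1.34. With a pseudocount of 1, which does not use the floor, its value was 3.06. Ratios of summed counts were computed at the main size factors only, and scaling to oocyte and germline markers would raise all of them. Depth limits the sparse genes most. No paired analysis was possible because each strain has 1 library.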
